A study of Mus musculus with 12 samples.

Results

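The collagen genes are followed here across the spinal cords of 4 mouse genotypes. Members were the protein-coding rows of the deposited count table whose symbol reads Col, a number, a and a number, and this rule found 44 of the 45906 genes in the table. RNA of the spinal cord came from 12 mice aged 7 months, with 3 mice in each genotype. Plekhg5+/+ mice are the controls, Plekhg5-/- mice lack Plekhg5, a guanine nucleotide exchange factor, in every cell, Plekhg5+/+ SOD1-G93A mice carry a low-copy human SOD1 transgene with the G93A change of familial amyotrophic lateral sclerosis, and Plekhg5-/- SOD1-G93A mice combine both. The genetic background was C57BL/6 in every group, and apart from Plekhg5 and the transgene no allele or treatment is named. Nothing in the labels says how the mice of a genotype are related, so every p-value measures the spread between these 12 libraries.

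Collagens are built from 3 chains wound into a triple helix, and each chain is the product of its own gene. Fibril-forming collagens give tissues their tensile strength, type IV collagen forms the network of basement membranes, and other types bind to fibrils, span membranes or form beaded filaments. In the adult spinal cord most collagen lies outside the neural tissue proper, in the meninges, around blood vessels and in the sheaths of nerve roots, where fibroblasts, endothelial cells, pericytes and Schwann cells make it. Some members, such as the transmembrane collagen Col25a1, are made by neurons.

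The libraries held 30415643 to 38743628 counts. Levels are given as CPM, the counts of a gene relative to the TMM-normalized total of its library. They checked the genotypes: Plekhg5 had 19.4 to 25.0 CPM in the 6 Plekhg5+/+ libraries with or without the transgene and 3.28 to 4.72 CPM in the 6 others, and human SOD1 had 4421 to 5638 CPM in the 6 transgenic libraries and at most 5.47 CPM elsewhere. The summed markers of skeletal muscle reached 167, 56.4, 90.9 and 41.4 CPM in 1 library of each genotype and 4.14 to 9.82 CPM in the other 8. Transcripts of the Y chromosome were present in 3 Plekhg5+/+, 2 Plekhg5-/-, 2 Plekhg5+/+ SOD1-G93A and 1 Plekhg5-/- SOD1-G93A library. Neuronal, astrocyte, microglial and oligodendrocyte markers were detected in all 12 libraries.

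Levels of the 44 genes covered a wide range. The mean over the 12 libraries was at least 10 CPM for 23 genes, between 1 and 10 CPM for 17 genes and under 1 CPM for 4 genes (Col6a6, Col6a5, Col17a1 and Col10a1). Of these, Col10a1, the collagen of growth cartilage, with 0 to 4 counts a library, and Col17a1, a hemidesmosome collagen of skin, with 1 to 9 counts, did not pass the filter on low counts, which left 42 genes for the tests. The mean summed level of all 44 genes was 658.7 ± 48.0 CPM (SD, n = 3) in Plekhg5+/+, 642.2 ± 92.6 CPM in Plekhg5-/-, 635.2 ± 27.8 CPM in Plekhg5+/+ SOD1-G93A and 748.6 ± 48.0 CPM in Plekhg5-/- SOD1-G93A mice. Each of the 3 Plekhg5-/- SOD1-G93A libraries, with 718.8, 803.9 and 723.1 CPM, stood above every other library, the next being 717.7 CPM in a Plekhg5-/- mouse. Mice of 1 genotype differed more in these genes than in most: the SD of log2 values within genotypes had a median of 0.27 over the 42 genes tested and of 0.15 over all 20155 genes tested.

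**Figure D1:**
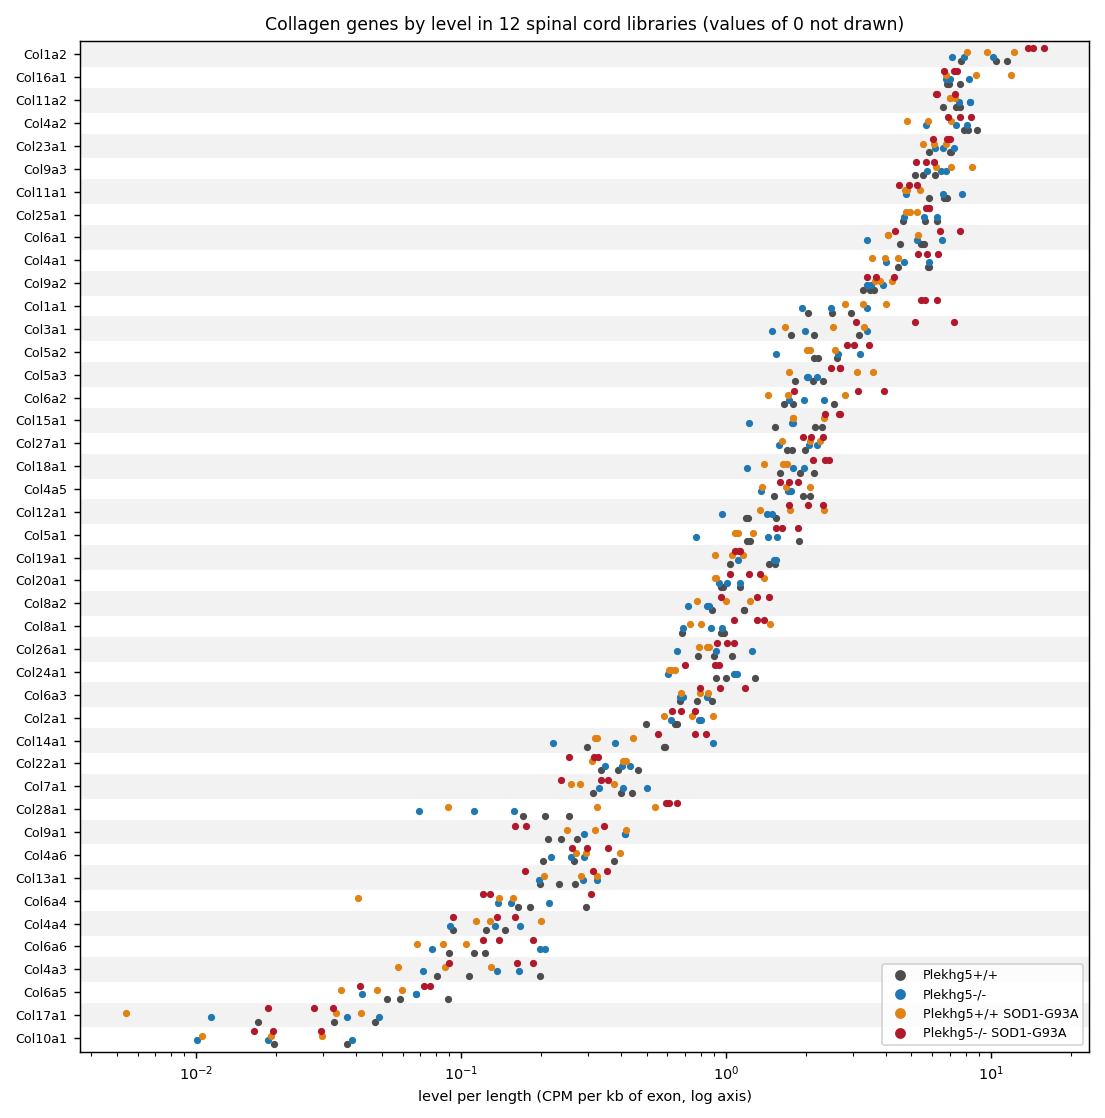
Level of each of the 44 collagen genes in CPM per kb of exon, on a log axis, with 1 point for each of the 12 libraries coloured by genotype and the genes ordered by their mean. Col1a2 leads with a mean of 10.7 CPM per kb, and its 3 points for Plekhg5-/- SOD1-G93A mice lie to the right of the others.

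Per length of exon, which allows levels of different genes to be compared, Col1a2 ranked first with a mean of 10.7 CPM per kb, or 10.2% of the summed level per length of the 44 genes. It was followed by Col16a1 with 7.67, Col11a2 with 7.24, Col4a2 with 7.22, Col23a1 with 6.50 and Col9a3 with 6.20 CPM per kb. The next 6 were Col11a1 (5.66), Col25a1 (5.45), Col6a1 (5.22), Col4a1 (4.99), Col9a2 (3.68) and Col1a1 (3.56 CPM per kb). Several of these are known from cartilage (Col11a1, Col11a2, Col9a2 and Col9a3). The list of 9 cartilage and bone markers summed to 17.0 to 27.6 CPM, most of it from Dmp1 (12.3 to 21.2 CPM), followed by Sp7 (2.31 to 4.98 CPM) and Comp (0.761 to 3.79 CPM), while the other 6 had at most 1.604 CPM. None of the 9 was at 0, and their part in these levels was not tested. The steadiest members over the 12 libraries were Col23a1 and Col9a2, each with a highest value 1.31 times its lowest, Col11a2 with 1.35 times and Col25a1 with 1.35 times. Col28a1 with 9.41 times, Col6a4 with 7.62 times and Col3a1 with 4.85 times varied most among the genes tested.

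No collagen gene passed an adjusted p of 0.05 with edgeR in any of the 5 comparisons. In the comparison of the transgene with Plekhg5 intact, 0 of 42 members passed where 2.47% of all genes tested did. For Plekhg5 loss with the transgene the share over all genes was 0.0347%, for Plekhg5 loss without it 0.0298%, for the transgene without Plekhg5 0.00496%, and for the interaction, the effect of Plekhg5 loss with the transgene minus that without it, 0%. DESeq2, run as an alternative with and without its prior on fold changes, called Col24a1 and Col4a2 in the first comparison, Col1a1 in the second and Col1a1, Col1a2 and Col28a1 for the transgene without Plekhg5, and 0 members for Plekhg5 loss without the transgene and for the interaction. Without the prior it called 6.01%, 0.373% and 0.225% of all genes in these 3 comparisons, in that order, so that 2 of 42 was below the share of all genes in the first comparison.

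Below that threshold the members leaned to 1 side in 2 comparisons between genotypes, and also in the interaction. When Plekhg5-/- SOD1-G93A mice were compared with Plekhg5+/+ SOD1-G93A mice, 12 of 42 members were higher and 2 lower at an unadjusted p under 0.05, against 3.59% higher and 5.05% lower over all genes tested. All 3 libraries of the first genotype exceeded all 3 of the second for 13 members and fell short for 1, where these shares were 9.48% and 10% over all genes, and the median log2 fold change was 0.28 over the members and -0.01 over all genes tested. The 14 members became 6 (5.35% of all genes, in either direction) without the second Plekhg5-/- SOD1-G93A library, with a median of 0.17, and 7 (5.36%) without the first Plekhg5+/+ SOD1-G93A library. When the same libraries were compared with Plekhg5-/- mice, 10 members were higher and 4 lower (3.27% and 2.1% over all genes), 9 were higher and 2 lower without overlap between libraries (7.25% and 5.22%), and the median was 0.13 against 0.00. This median rested on the first Plekhg5-/- library, without which it was -0.003 over the members and -0.003 over all genes, although 14 members still had an unadjusted p under 0.05 (5.22% of all genes). These comparisons share the Plekhg5-/- SOD1-G93A libraries. RNA was taken from whole tissue, so more collagen-making cells and more collagen RNA per cell cannot be told apart.

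With Plekhg5 intact, the transgene went with no such lean: 4 members were higher and 5 lower at an unadjusted p under 0.05 (10.6% and 7.51% over all genes), and the median log2 fold change was -0.04 against 0.00. Without the third Plekhg5+/+ library the 9 members became 4 (17.3% of all genes). Plekhg5 loss without the transgene gave 0 members higher and 0 lower (2.53% and 2.79%), with medians of 0.00 and 0.01. In the interaction 10 members were above and 3 below 0 at an unadjusted p under 0.05 (3.87% and 5.18%), and the median was 0.23 over the members and -0.01 over all genes, falling to 0.12 without the first Plekhg5-/- library.

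**Figure D2:**
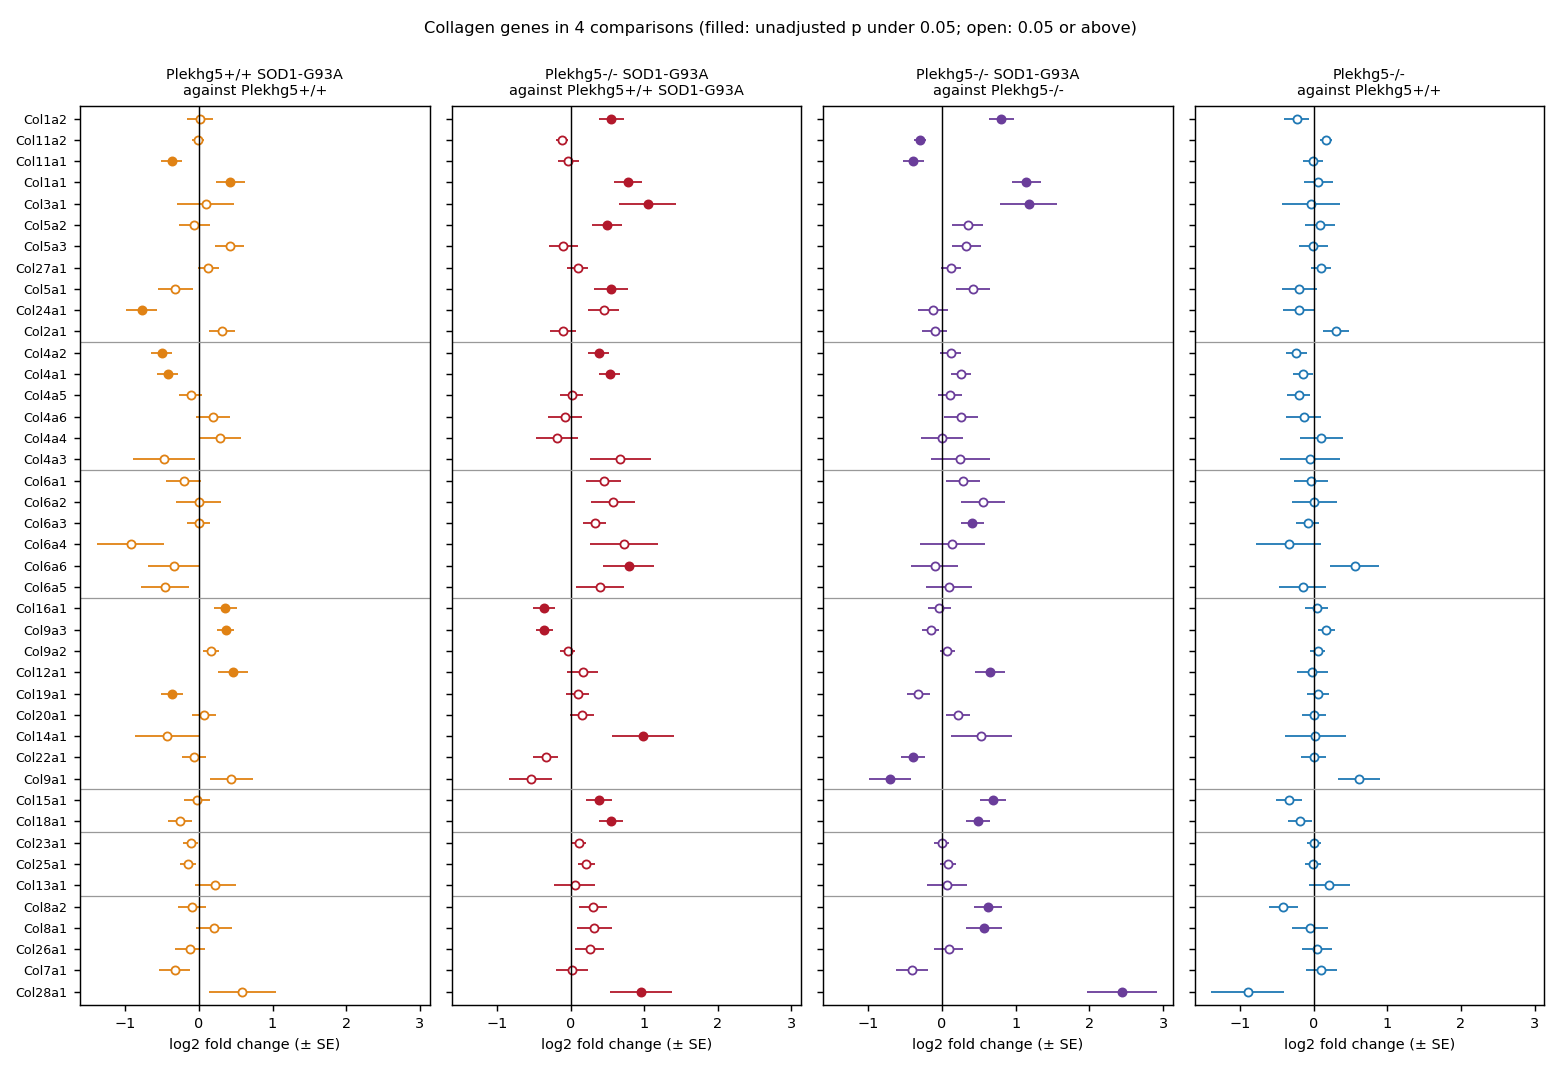
Log2 fold change with its SE (edgeR, horizontal axis) of the 42 collagen genes tested, in 1 panel for each of 4 comparisons and grouped by collagen type from fibril-forming at the top to short-chain and other collagens at the bottom. Filled points have an unadjusted p under 0.05: 9 in the first panel, 14 in the second, 14 in the third and 0 in the last.

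Among the 11 fibril-forming genes, type I and type III collagen stood out. Col1a1 (gene ID 12842, chromosome 11 from 94936224 to 94953042) encodes the major chain of type I collagen, the main collagen of skin, bone, tendon and meninges. Its 3 libraries had 14.8, 17.6 and 12.1 CPM in Plekhg5+/+, 11.4, 20.2 and 14.8 CPM in Plekhg5-/-, 19.4, 16.6 and 23.7 CPM in Plekhg5+/+ SOD1-G93A and 33.4, 37.1 and 32.2 CPM in Plekhg5-/- SOD1-G93A mice. All 3 libraries of the last genotype lay above the other 9. The log2 difference from Plekhg5+/+ SOD1-G93A was 0.78 ± 0.19 (SE), 1.72-fold, with a 95% interval of 0.37 to 1.19 and an adjusted p of 0.402 (edgeR). Against Plekhg5-/- it was 1.15 ± 0.19, 2.21-fold, with an interval of 0.73 to 1.56 and an adjusted p of 0.214, at an unadjusted p of 6.21e-05. These were the smallest p-values of any member in both comparisons. DESeq2 without a prior gave adjusted p-values of 0.0223 and 2.62e-05 for them. Without the second Plekhg5-/- library the latter comparison passed in edgeR as well (adjusted p = 0.0474), and over all single omissions the adjusted p reached 0.605.

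Col1a2 (gene ID 12843, chromosome 6 from 4505618 to 4541543), the partner chain of type I collagen, had 54.3, 59.9 and 40.2 CPM in Plekhg5+/+, 41.0, 53.2 and 37.1 CPM in Plekhg5-/-, 50.3, 42.3 and 63.7 CPM in Plekhg5+/+ SOD1-G93A and 72.1, 82.3 and 75.3 CPM in Plekhg5-/- SOD1-G93A mice. As for Col1a1, the last 3 libraries exceeded all others. The log2 difference was 0.56 ± 0.17 from Plekhg5+/+ SOD1-G93A (adjusted p = 0.440, edgeR) and 0.81 ± 0.17 from Plekhg5-/- mice (adjusted p = 0.381). DESeq2 without a prior called the second of these (adjusted p = 0.00407). For the transgene with Plekhg5 intact, Col1a2 had a log2 difference of 0.02 ± 0.17 and Col1a1 one of 0.43 ± 0.19.

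Col3a1 (gene ID 12825, chromosome 1 from 45311538 to 45349706), the fibrillar collagen of vessel walls and soft tissue, had 11.9, 17.6 and 9.77 CPM in Plekhg5+/+, 8.31, 18.8 and 11.0 CPM in Plekhg5-/-, 9.26, 14.1 and 18.4 CPM in Plekhg5+/+ SOD1-G93A and 17.2, 40.3 and 28.7 CPM in Plekhg5-/- SOD1-G93A mice. The first of the last 3 libraries lay within the range of the other genotypes and the other two lay above it. The log2 difference from Plekhg5+/+ SOD1-G93A was 1.05 ± 0.39 (adjusted p = 0.517, edgeR), with a wide interval of 0.19 to 1.90. Col5a1 and Col5a2, whose chains help to start fibrils, had log2 differences of 0.55 ± 0.23 and 0.49 ± 0.21 in the same comparison, and for both no library of 1 genotype overlapped the other. Unlike type I collagen they did not stand above all other genotypes. In Plekhg5-/- SOD1-G93A mice Col5a1 had 13.2 to 15.9 CPM, within the 10.2 to 16.1 CPM of Plekhg5+/+ mice. Col5a2 had 18.9 to 22.9 CPM there and 10.2 to 21.2 CPM in Plekhg5-/- mice.

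The cartilage-type chains did not share the rise against Plekhg5+/+ SOD1-G93A mice. Col11a1 had 46.0, 54.2 and 52.6 CPM in Plekhg5+/+, 37.7, 61.8 and 52.3 CPM in Plekhg5-/-, 42.8, 37.4 and 38.1 CPM in Plekhg5+/+ SOD1-G93A and 38.8, 41.7 and 35.5 CPM in Plekhg5-/- SOD1-G93A mice. It was lower in the 3 Plekhg5+/+ SOD1-G93A libraries than in the 3 Plekhg5+/+ libraries, by a log2 difference of -0.37 ± 0.14 (adjusted p = 0.187, edgeR), and passed the threshold without the first Plekhg5-/- library (0.0371, and up to 0.438 without another library). With -0.03 ± 0.14, its difference between the transgenic genotypes had an interval of -0.34 to 0.28. Col11a2, its partner chain, had 55.9, 48.1 and 53.7 CPM in Plekhg5+/+, 55.2, 61.0 and 60.8 CPM in Plekhg5-/-, 53.6, 51.3 and 51.2 CPM in Plekhg5+/+ SOD1-G93A and 53.2, 45.7 and 45.1 CPM in Plekhg5-/- SOD1-G93A mice. Its smallest p was that against Plekhg5-/- mice, with a log2 difference of -0.30 ± 0.08 (adjusted p = 0.531) and no overlap between the libraries. Col2a1, the chief collagen of cartilage, stayed between 2.93 and 5.25 CPM.

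Col24a1 (gene ID 71355, chromosome 3 from 145292472 to 145552013), a minor fibrillar collagen, had the smallest p of any member for the transgene with Plekhg5 intact. Its libraries had 6.52, 9.19 and 7.14 CPM in Plekhg5+/+, 4.33, 7.65 and 7.82 CPM in Plekhg5-/-, 4.57, 4.42 and 4.35 CPM in Plekhg5+/+ SOD1-G93A and 6.51, 6.74 and 5.003 CPM in Plekhg5-/- SOD1-G93A mice. The 3 Plekhg5+/+ SOD1-G93A values lay close together, below every Plekhg5+/+ value and below every Plekhg5-/- SOD1-G93A value, but 1 Plekhg5-/- library was lower still. The log2 difference from Plekhg5+/+ was -0.78 ± 0.21, 0.584-fold, with an interval of -1.23 to -0.32 and an adjusted p of 0.0717 (edgeR). DESeq2 without a prior called it (adjusted p = 0.0123), and so did edgeR without the first Plekhg5-/- library (0.0207, and up to 0.260 without another library). The remaining fibril-forming genes, Col5a3 and Col27a1, had 11.4 to 23.5 CPM and 13.6 to 19.9 CPM. Without the third Plekhg5+/+ SOD1-G93A library, Col5a3 passed the threshold for the transgene with Plekhg5 intact (log2 0.68 ± 0.11, adjusted p = 0.00716), against 0.42 ± 0.20 with all libraries.

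Bases upstream of the start of transcription (RefSeq, GRCm38.p6, 5′ to 3′ on the strand of the gene) are shown for 3 of the fibril-forming genes just described and for Col28a1, described further on. They were taken from the members with a RefSeq window, which do not include Col1a1. The stretches are chr6:4505370-4505492 (+ strand), 248 to 126 bases before the start of Col1a2, and the 250 bases before the starts of Col3a1 (chr1:45311288-45311537, + strand), Col24a1 (chr3:145292222-145292471, + strand) and Col28a1 (chr6:8192618-8192867, - strand). The stretch of Col28a1 lies within the gene as the deposited annotation draws it, before a start of RefSeq that is further in. Capitals mark the GC box GGGCGG and the TATA box TATAAA on either strand.
Col1a2: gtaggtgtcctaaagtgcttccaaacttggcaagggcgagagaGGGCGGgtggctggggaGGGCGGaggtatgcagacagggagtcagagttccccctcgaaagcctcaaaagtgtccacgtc
Col3a1: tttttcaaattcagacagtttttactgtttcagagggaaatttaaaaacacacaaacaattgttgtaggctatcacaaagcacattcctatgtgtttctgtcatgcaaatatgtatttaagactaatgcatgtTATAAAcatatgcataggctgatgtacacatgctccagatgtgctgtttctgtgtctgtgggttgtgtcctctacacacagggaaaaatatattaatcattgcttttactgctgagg
Col24a1: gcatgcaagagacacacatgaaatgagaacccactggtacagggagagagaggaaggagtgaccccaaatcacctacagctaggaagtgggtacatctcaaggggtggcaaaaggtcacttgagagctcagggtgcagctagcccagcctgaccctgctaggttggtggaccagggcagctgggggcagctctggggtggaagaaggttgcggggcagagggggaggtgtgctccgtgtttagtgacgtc
Col28a1: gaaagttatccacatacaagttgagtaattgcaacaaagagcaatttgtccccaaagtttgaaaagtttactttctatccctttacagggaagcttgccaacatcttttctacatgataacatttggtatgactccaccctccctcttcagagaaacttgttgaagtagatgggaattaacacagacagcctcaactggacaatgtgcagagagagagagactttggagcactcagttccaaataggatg
The stretch of Col1a2 held the GC box at 205 and 188 bases before the start and that of Col3a1 the TATA box at 117 bases before the start, whereas those of Col24a1 and Col28a1 held neither, nor CCAAT, nor the cyclic AMP response element TGACGTCA. The stretch of Col24a1 ended in all but the last letter of that element, so its absence there rests on the edge of the stretch. In its whole window of 250 bases Col1a2 also had CCAAT. RefSeq windows of 250 bases were at hand for 35 members, with 38 windows in all. The GC box was in 57.9% of these and in 32.7% of the 32851 windows of all genes, the TATA box in 13.2% and 12.4%, CCAAT in 34.2% and 33.8%, and the cyclic AMP response element in 0% and 1.55%, counting both strands. At an unadjusted p under 0.05 (edgeR), 12 members were higher in Plekhg5-/- SOD1-G93A than in Plekhg5+/+ SOD1-G93A mice (3.59% of all genes). Of these, Col1a2, Col5a1, Col18a1, Col4a2 and Col6a6 had a GC box. The windows of Col3a1, Col4a1, Col15a1 and Col28a1 lacked it, and Col1a1, Col5a2 and Col14a1 had no window. Of the 2 lower members (5.05%), Col16a1 had the GC box and Col9a3 had no window. Members past this p in neither direction included Col11a1 and Col11a2 with the box and Col9a1 without it.

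**Figure D3:**
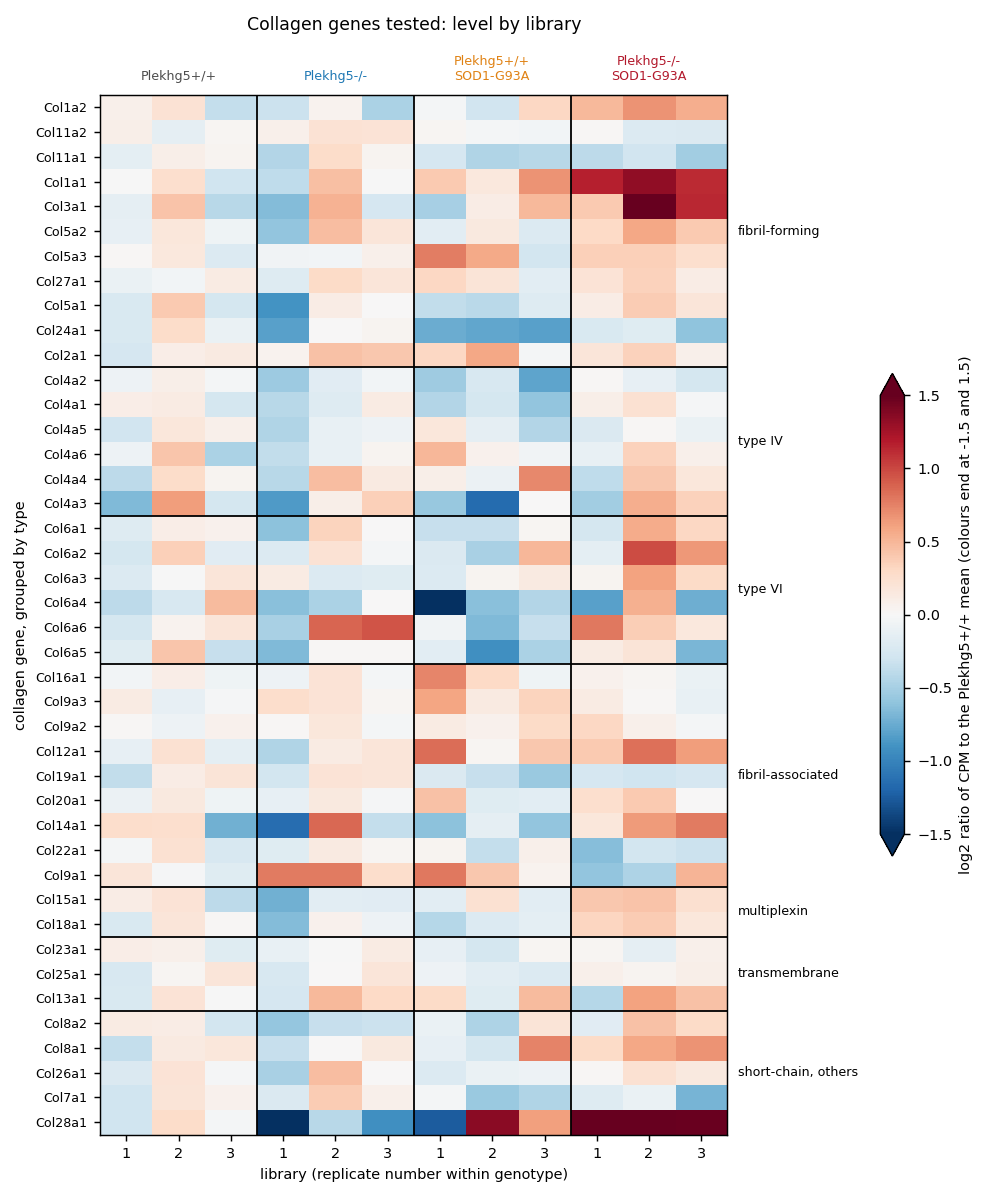
Log2 ratio of CPM to the mean of the 3 Plekhg5+/+ libraries (colour, red higher and blue lower) for the 42 collagen genes tested (rows, grouped by type) in the 12 libraries (columns, grouped by genotype). Col1a1, Col3a1 and Col28a1 are the darkest red rows in the Plekhg5-/- SOD1-G93A columns, and Col4a1, Col4a2 and Col24a1 are blue in the Plekhg5+/+ SOD1-G93A columns.

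Type IV collagen, the scaffold of basement membranes around vessels, glia limitans and Schwann cells, was dominated by Col4a1 and Col4a2. Their genes lie head to head on chromosome 8 and overlap by 85 bases in the deposited annotation (Col4a1, gene ID 12826, from 11198423 to 11312889, and Col4a2, gene ID 12827, from 11312805 to 11449287). Col4a1 had 43.3, 44 and 33.5 CPM in Plekhg5+/+, 30.1, 35.2 and 43.9 CPM in Plekhg5-/-, 29.8, 33.6 and 26.8 CPM in Plekhg5+/+ SOD1-G93A and 43.0, 47.3 and 39.9 CPM in Plekhg5-/- SOD1-G93A mice. Col4a2 had 51.0, 57.2 and 52.6 CPM in Plekhg5+/+, 36.7, 47.6 and 52.3 CPM in Plekhg5-/-, 37.1, 45.3 and 31.0 CPM in Plekhg5+/+ SOD1-G93A and 54.1, 49.4 and 44.5 CPM in Plekhg5-/- SOD1-G93A mice. Both chains were thus lowest on average in Plekhg5+/+ SOD1-G93A mice, and the Plekhg5-/- SOD1-G93A values fell in the range of the controls or close to it.

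For the transgene with Plekhg5 intact, the log2 difference was -0.42 ± 0.14 for Col4a1 (adjusted p = 0.131, edgeR) and -0.50 ± 0.14 for Col4a2 (adjusted p = 0.0821). For Plekhg5 loss with the transgene it was 0.53 ± 0.14 for Col4a1 (adjusted p = 0.402) and 0.38 ± 0.14 for Col4a2 (adjusted p = 0.517), and these comparisons share the Plekhg5+/+ SOD1-G93A libraries. Col4a1 had the smallest p of any member in the interaction, at 0.68 ± 0.20 (adjusted p = 0.401). DESeq2 without a prior called Col4a2 for the transgene (adjusted p = 0.0158). edgeR called it too without the first Plekhg5-/- library (0.0391) and without the second Plekhg5+/+ SOD1-G93A library (0.0256), and the adjusted p reached 0.257 without another library. The chains of specialized basement membranes were far lower. Col4a5 had 8.87 to 13.6 CPM, Col4a6 1.41 to 2.76 CPM, Col4a4 1.05 to 2.31 CPM and Col4a3 0.495 to 1.70 CPM, and 0 of these 4 had an unadjusted p under 0.05 in any comparison. Col4a3 and Col4a4 also overlap at their starts, by 114 bases, and Col4a5 and Col4a6 start 1274 bases apart on the X chromosome.

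Type VI collagen, a beaded filament next to basement membranes of nerve and muscle, was represented by Col6a1, Col6a2 and Col6a3 and by the low-level chains Col6a4, Col6a5 and Col6a6. All 6 had a log2 difference above 0 for Plekhg5 loss with the transgene, from 0.33 to 0.79, with a median of 0.51. Only Col6a6, at 0.528 to 1.61 CPM, had an unadjusted p under 0.05 there (log2 0.79 ± 0.34, adjusted p = 0.555, edgeR). Col6a1 had 18.1, 22.2 and 21.6 CPM in Plekhg5+/+, 13.5, 26.0 and 20.8 CPM in Plekhg5-/-, 16.3, 16.3 and 21.1 CPM in Plekhg5+/+ SOD1-G93A and 17.2, 30.4 and 25.5 CPM in Plekhg5-/- SOD1-G93A mice, so that its genotypes overlapped. Col6a2 varied likewise, from 8.61 to 23.6 CPM. Among Plekhg5-/- SOD1-G93A mice the second and the third library had the highest values of Col6a2 and 2 of the 3 highest of Col6a3, while the first lay among the other genotypes, and the same was seen for Col3a1.

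The fibril-associated collagens, which sit on fibrils and link them to other matrix proteins, went in different directions. Col9a3 had 18.9, 15.9 and 17.1 CPM in Plekhg5+/+, 20.7, 19.9 and 17.6 CPM in Plekhg5-/-, 26.1, 19 and 21.7 CPM in Plekhg5+/+ SOD1-G93A and 18.8, 17.5 and 16.0 CPM in Plekhg5-/- SOD1-G93A mice. Its 3 Plekhg5+/+ SOD1-G93A libraries lay above the Plekhg5+/+ libraries (log2 0.37 ± 0.12, adjusted p = 0.113, edgeR) and above the Plekhg5-/- SOD1-G93A libraries (log2 -0.36 ± 0.11, adjusted p = 0.456). Without the second Plekhg5+/+ SOD1-G93A library the first of these passed the threshold (adjusted p = 0.0410), and over all single omissions its log2 value ranged from 0.24 to 0.45. Col9a2 had 9.60, 9.03 and 9.92 CPM in Plekhg5+/+, 9.66, 10.7 and 9.31 CPM in Plekhg5-/-, 10.4, 9.97 and 11.6 CPM in Plekhg5+/+ SOD1-G93A and 11.8, 10.05 and 9.32 CPM in Plekhg5-/- SOD1-G93A mice, a narrow range.

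Col16a1, found with fibrils and elastic fibres, followed Col9a3 in part. It had 43.3, 47.7 and 42.7 CPM in Plekhg5+/+, 42.3, 51.4 and 43.6 CPM in Plekhg5-/-, 74.0, 55.0 and 42.4 CPM in Plekhg5+/+ SOD1-G93A and 46.6, 45.5 and 41.6 CPM in Plekhg5-/- SOD1-G93A mice. The first Plekhg5+/+ SOD1-G93A library was the highest of all 12 and the third was among the lowest. The log2 difference was 0.36 ± 0.15 for the transgene with Plekhg5 intact (adjusted p = 0.238, edgeR) and -0.36 ± 0.15 for Plekhg5 loss with it (adjusted p = 0.549). Without the third Plekhg5+/+ SOD1-G93A library the first of these was 0.53 ± 0.12 (adjusted p = 0.0348). Without the first Plekhg5+/+ SOD1-G93A library both shrank, to 0.13 (adjusted p = 0.679) and -0.13 (adjusted p = 0.789).

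Col9a1, the third chain of type IX collagen, had the smallest p of any member for Plekhg5 loss without the transgene. Its values were 1.16, 1.01 and 0.903 CPM in Plekhg5+/+, 1.76, 1.76 and 1.23 CPM in Plekhg5-/-, 1.77, 1.35 and 1.06 CPM in Plekhg5+/+ SOD1-G93A and 0.678, 0.744 and 1.46 CPM in Plekhg5-/- SOD1-G93A mice. The log2 difference was 0.62 ± 0.29 (unadjusted p = 0.0526, adjusted p = 0.933, edgeR), and reads shared with other genes were split into fractional counts in 5 of its 12 libraries. Col12a1, a collagen of tendon and meninges, had a mean of 18.6 ± 2.84 CPM in Plekhg5+/+, 18.3 ± 4.05 CPM in Plekhg5-/-, 25.6 ± 7.16 CPM in Plekhg5+/+ SOD1-G93A and 28.7 ± 4.30 CPM in Plekhg5-/- SOD1-G93A mice (SD, n = 3). Its log2 differences were 0.46 ± 0.21 for the transgene with Plekhg5 and 0.65 ± 0.21 without it (adjusted p = 0.270 and 0.722), and the former was 0.23 without the first Plekhg5+/+ SOD1-G93A library. Col19a1 leaned the other way in transgenic mice, with 12.9 ± 1.53 and 13.8 ± 0.265 CPM against 16.6 ± 3.26 CPM in Plekhg5+/+ mice. Col14a1 had 1.58 to 6.33 CPM and a log2 difference of 0.99 ± 0.42 for Plekhg5 loss with the transgene, Col20a1 had 7.10 to 10.9 CPM, and Col22a1 had 2.39 to 4.34 CPM.

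The multiplexins Col15a1 and Col18a1, basement membrane collagens that carry heparan or chondroitin sulphate and whose last part is released as restin or endostatin, were higher in Plekhg5-/- SOD1-G93A mice. Col15a1 had a mean of 11.5 ± 2.38 CPM in Plekhg5+/+, 9.13 ± 1.88 CPM in Plekhg5-/-, 11.3 ± 1.83 CPM in Plekhg5+/+ SOD1-G93A and 14.7 ± 1.02 CPM in Plekhg5-/- SOD1-G93A mice (SD, n = 3). For Col18a1 the means were 13.7 ± 1.97, 12.0 ± 2.93, 11.4 ± 1.16 and 16.8 ± 1.21 CPM in the same order. For Plekhg5 loss with the transgene the log2 differences were 0.38 ± 0.17 and 0.55 ± 0.16 (adjusted p = 0.571 and 0.421, edgeR), and for the transgene without Plekhg5 they were 0.69 ± 0.18 and 0.48 ± 0.16 (adjusted p = 0.498 and 0.754). In both comparisons neither gene had libraries that overlapped between genotypes.

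Of the transmembrane collagens, Col23a1 and Col25a1 varied least. Col23a1 had 42.7, 42.0 and 35.3 CPM in Plekhg5+/+, 36.9, 39.8 and 43.6 CPM in Plekhg5-/-, 36.7, 33.4 and 40.9 CPM in Plekhg5+/+ SOD1-G93A and 41.0, 36.4 and 42.3 CPM in Plekhg5-/- SOD1-G93A mice. Col25a1, a neuronal collagen also known from amyloid plaques and needed for motor innervation of muscle, had 37.9, 45.9 and 51.0 CPM in Plekhg5+/+, 38.2, 45.3 and 50.9 CPM in Plekhg5-/-, 42.7, 40.3 and 38.8 CPM in Plekhg5+/+ SOD1-G93A and 47.6, 46.4 and 47.6 CPM in Plekhg5-/- SOD1-G93A mice. The 95% intervals of the log2 differences of Col23a1 lay within -0.33 and 0.32 in the 4 comparisons between genotypes, and those of Col25a1 within -0.38 and 0.45. Col13a1, a collagen of the neuromuscular junction, had 1.14 to 2.34 CPM, a 2.05-fold range.

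Of the remaining types, Col28a1 (gene ID 213945, chromosome 6 from 7997100 to 8193709), a collagen known from the basement membranes of peripheral nerve and dorsal root ganglia, had the largest log2 difference of any member. It had 1.01, 1.51 and 1.22 CPM in Plekhg5+/+, 0.410, 0.934 and 0.663 CPM in Plekhg5-/-, 0.528, 3.20 and 1.92 CPM in Plekhg5+/+ SOD1-G93A and 3.61, 3.86 and 3.496 CPM in Plekhg5-/- SOD1-G93A mice. All 3 libraries of the last genotype exceeded the other 9, and all 3 Plekhg5-/- libraries lay below the 3 Plekhg5+/+ libraries. Against Plekhg5-/- mice the log2 difference was 2.45 ± 0.47, 5.45-fold, with an interval of 1.42 to 3.47 and an adjusted p of 0.295 (edgeR). DESeq2 without a prior gave 0.000771, edgeR on these 2 genotypes alone gave 0.0257, and edgeR without the first Plekhg5+/+ SOD1-G93A library, which is in neither genotype but enters the shared spread, gave 0.00759, while other single omissions gave up to 0.734. Counts per library ranged from 14 to 135. Col8a1 and Col8a2, the network collagens of endothelium, had 3.48 to 7.50 CPM and 3.69 to 7.47 CPM, with log2 differences of 0.57 ± 0.24 and 0.62 ± 0.19 for the transgene without Plekhg5 (adjusted p = 0.892 and 0.684). Col26a1 had 2.61 to 5.03 CPM and Col7a1, the anchoring fibril collagen of skin, had 2.20 to 4.64 CPM.

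Ratios between chains of the same collagen type, per length of exon, are given as descriptions. The ratio of Col1a1 to Col1a2 had means of 0.254 ± 0.012 in Plekhg5+/+, 0.310 ± 0.057 in Plekhg5-/-, 0.338 ± 0.0092 in Plekhg5+/+ SOD1-G93A and 0.394 ± 0.016 in Plekhg5-/- SOD1-G93A mice (SD, n = 3), and the values of Plekhg5+/+ SOD1-G93A mice overlapped neither those of Plekhg5+/+ mice nor those of mice with both changes. The Plekhg5-/- values, 0.245 to 0.350, overlapped those of both Plekhg5+/+ and Plekhg5+/+ SOD1-G93A mice. The ratio of Col4a1 to Col4a2 ranged from 0.546 to 0.822, that of Col6a1 to Col6a2 from 1.88 to 3.05 and that of Col9a2 to Col9a3 from 0.448 to 0.705 over the 12 libraries. Type IX showed its lowest mean ratio, 0.545 ± 0.084, in Plekhg5+/+ SOD1-G93A and its highest, 0.668 ± 0.032, in Plekhg5-/- SOD1-G93A mice.

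Genes that act on collagen were followed in 5 lists, of which Gp6 and Kera were too low to be tested. Of 18 genes for chain modification and folding, P4ha3, a prolyl hydroxylase subunit, rose in Plekhg5+/+ SOD1-G93A against Plekhg5+/+ mice (log2 0.83 ± 0.17, adjusted p = 0.0257, edgeR) and P4ha2, another such subunit, fell (-0.77 ± 0.16, adjusted p = 0.0260). Of 13 genes for procollagen cleavage and crosslinking, Loxl2, a lysyl oxidase that crosslinks type IV collagen, rose (1.12 ± 0.22, adjusted p = 0.0257). Of 9 collagen receptors and uptake genes tested, the receptor kinase Ddr1 rose (0.51 ± 0.08, adjusted p = 0.0140) and so did Lair1, an inhibitory collagen receptor of leukocytes (0.89 ± 0.18, adjusted p = 0.0244). Of 14 fibril-binding proteoglycans and glycoproteins tested, Postn (1.25 ± 0.30, adjusted p = 0.0490) and Thbs2 (0.88 ± 0.19, adjusted p = 0.0345) rose. No gene of these 4 lists passed in the other comparisons (edgeR), at an unadjusted p under 0.05 in 0 to 5 genes a list and direction. The fibril-binding list leaned upward. For Plekhg5 loss with the transgene, 4 of 14 were higher and 0 lower (3.59% and 5.05% of all genes), with 10 above 0 and a median log2 difference of 0.32. For the transgene without Plekhg5, 5 were higher and 0 lower (3.27% and 2.1%), with all 14 above 0 and a median of 0.59.

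The last list, 16 basement membrane partners such as laminins, nidogens and perlecan, had 0 genes past the adjusted threshold in any comparison (edgeR). At an unadjusted p under 0.05, 7 of 16 were higher and 0 lower for Plekhg5 loss with the transgene, and 10 were higher and 0 lower for the transgene without Plekhg5, with median log2 differences of 0.16 and 0.37. Over all genes 3.59% were higher and 5.05% lower in the first of these and 3.27% and 2.1% in the second. Its most abundant members were Sparc, a collagen-binding protein also made by astrocytes, at 1063 to 1684 CPM, and Agrn at 125 to 169 CPM.

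Markers of cells that can make collagen were set beside these results. The 10 fibroblast markers, none of which was at 0 in any library, summed to 134.5 to 237.4 CPM in Plekhg5+/+, 106.7 to 232.4 CPM in Plekhg5-/-, 130.2 to 226.2 CPM in Plekhg5+/+ SOD1-G93A and 168.4 to 367.4 CPM in Plekhg5-/- SOD1-G93A mice. All 10 had a log2 difference above 0 for Plekhg5 loss with the transgene, with a median of 0.73. There, 0 passed an adjusted p of 0.05 and 1 was higher at an unadjusted p under 0.05 (3.59% of all genes). The first Plekhg5-/- SOD1-G93A library, with 168.4 CPM, was also the lowest of its genotype in Col1a2, Col3a1, Col6a1, Col6a2 and Col6a3. It was not the lowest in Col1a1 or in others such as Col4a1 and Col28a1. The list shares Dcn, Lum and Ogn with the fibril-binding list.

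For the 8 Schwann cell markers, which are at home in nerve roots, the sums were 169.7 to 393.5 CPM in Plekhg5+/+, 149.4 to 198.4 CPM in Plekhg5-/-, 156.7 to 254.0 CPM in Plekhg5+/+ SOD1-G93A and 374.2 to 503.6 CPM in Plekhg5-/- SOD1-G93A mice. At an unadjusted p under 0.05, 5 of 8 were higher for Plekhg5 loss with the transgene, 7 of 8 for the transgene without Plekhg5, and 5 of 8 were lower for Plekhg5 loss without the transgene, where 3.59%, 3.27% and 2.79% of all genes were. Endothelial markers summed to 389.9 to 463.9 CPM in Plekhg5-/- SOD1-G93A and 259.6 to 386.7 CPM in the other genotypes, and 9 of 12 were higher for Plekhg5 loss with the transgene at an unadjusted p under 0.05 (3.59% of all genes). Pericyte markers summed to 286.3 to 306.4 CPM and 194.0 to 273.3 CPM, with 1 of 10 higher in that comparison (3.59% of all genes). Smooth muscle markers, at 29.5 to 53.8 CPM over all libraries, went the other way. Of these, 1 of 7 was higher (3.59% of all genes) but only 3 of 7 were above 0, with a median log2 difference of -0.23. Of these lists only Tagln and Mylk, smooth muscle genes that rose, and the endothelial Ly6c1, which fell, passed the adjusted threshold, all for the transgene with Plekhg5 intact. In that comparison 9 of 10 microglial markers and the astrocyte gene Gfap rose too, and the neuronal, oligodendrocyte, cartilage and skeletal muscle lists had 0 calls in each comparison (edgeR). Microglial markers went opposite to the collagens for Plekhg5 loss with the transgene. At an unadjusted p under 0.05, 9 of 10 were lower (5.05% of all genes), with a median log2 difference of -0.63. The part of any of these cells in the collagen differences was not tested.

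Skeletal muscle markers did not follow the genotypes. Without the 4 libraries in which they exceeded 40 CPM, a check chosen after the data were seen that left 2 mice a genotype, 0 members passed in each comparison (edgeR). The log2 difference of Col1a1 was then 0.86 from Plekhg5+/+ SOD1-G93A and 1.32 from Plekhg5-/- mice (adjusted p = 0.611 and 0.0951), and that of Col1a2 was 0.67 and 0.91. That of Col4a1 was -0.47 for the transgene with Plekhg5 intact and 0.38 for Plekhg5 loss with it. Other values moved more: for the transgene with Plekhg5 intact Col1a1 had 0.14 in place of 0.43, and in the interaction it had 1.17 in place of 0.72 and Col1a2 had 1.22 in place of 0.79. At an unadjusted p under 0.05 there were 11 members for Plekhg5 loss with the transgene (4.83% of all genes in the same fit), 10 for the transgene without Plekhg5 (3.36%) and 4 for Plekhg5 loss without the transgene (6.44%), against 14, 14 and 0 members with all libraries. With the presence of Y-linked transcripts as a covariate, 0 members passed in each comparison, and these counts were 10 (5.68% of all genes), 13 (5.41%) and 3 (5.44%).

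**Figure D4:**
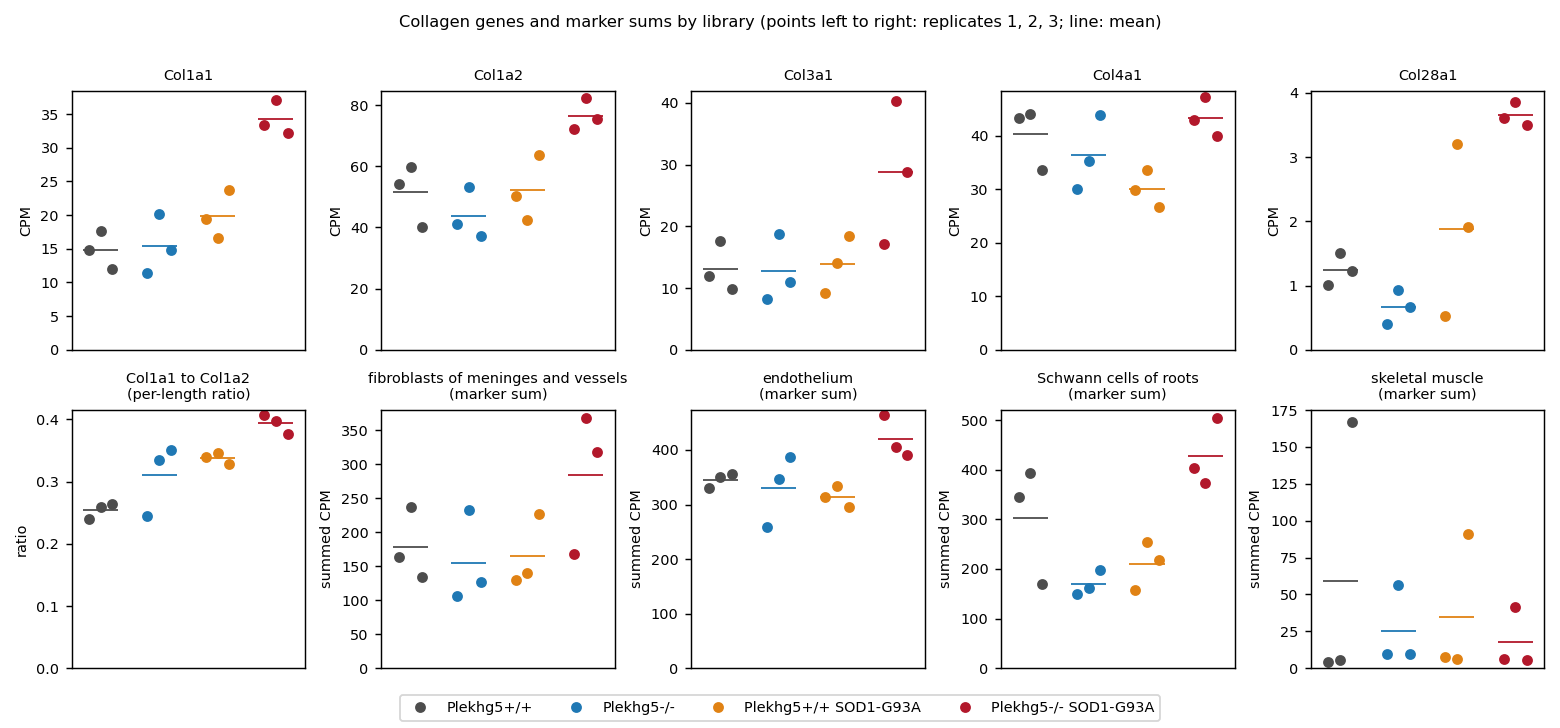
Levels in CPM of 5 collagen genes, the per-length ratio of Col1a1 to Col1a2, and the summed CPM of 4 marker lists, with 1 point for each library, coloured by genotype, and a line at each mean of 3 libraries. The fibroblast, endothelial and Schwann sums are highest on average in Plekhg5-/- SOD1-G93A mice, as are Col1a1, Col1a2, Col3a1 and Col28a1, whereas the skeletal muscle sum is high in 1 library of each genotype.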

How the data were processed

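Total RNA of mouse spinal cord was made into stranded poly-A libraries and sequenced by the authors. They trimmed reads with Cutadapt 2.4 and aligned them with STAR 2.7.2b to GRCm38.p6, to which the cDNA of human SOD1 had been added. The deposited values are estimated counts, made by the authors with featureCounts 1.6.4 by strand on RefSeq exons, with shared reads split into fractions and no normalization. They were rounded here. Of all entries 17.3% to 18.1% per library were not whole, and 14 of the 44 collagen genes had a fractional count in at least 1 library. Depth, 30415643 to 38743628 counts a library, limits the precision of genes under 1 CPM most.

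Genes were filtered with filterByExpr (20155 of 45906 kept), normalized with TMM and tested with edgeR 4.0.16 in R 4.3.3 (robust quasi-likelihood, 4 genotypes in 1 fit, 5 contrasts, Benjamini-Hochberg over all genes tested, threshold 0.05). Values are given with SE or SD, and intervals are 95%. The log2 CPM values behind the SD within genotypes and the correlations between libraries used a prior count of 2. Log2 differences came from the edgeR fit at its default setting. CPM per kb used the deposited exon length. DESeq2 1.42.0 and the other alternatives are listed below. The models were tested on simulated data. All genotypes came from the labels, and 0 count columns lacked a sample. Replicate numbers name separate mice and paired no samples: of 12 same-numbered pairs, 5 had a correlation of deviations over 0.1 (range -0.11 to 0.32). The members, the type, pathway and marker lists and the rule for naming genes were chosen with earlier results of these data known. The rule gives values per library for called members, the 12 highest per length and the smallest p in each comparison. Col3a1 and Col28a1 were added after their values were seen. Other lists are named by calls or abundance. Promoter windows came from RefSeq (GRCm38.p6). Plots used Python 3.11.15 and matplotlib 3.10.9. Some items are not reported here.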

Additional observations from a re-analysis of the deposited data

Results flagged for a closer look

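Col28a1 stood out because Plekhg5 loss went with lower values in every library without the transgene (0.410 to 0.934 CPM against 1.01 to 1.51 CPM) and with higher values in every library with it (3.496 to 3.86 CPM against 0.528 to 3.20 CPM). The interaction had a log2 value of 1.86 ± 0.66 and an adjusted p of 0.458 (edgeR), so the difference between these effects did not pass the test.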

How the results depend on the processing

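The counts of collagen genes called were 0 in the main test of each of the 5 comparisons. For the transgene with Plekhg5 intact the count was 2 with DESeq2 with and without its prior and with an adjusted p under 0.1 (Col24a1 and Col4a2), for Plekhg5 loss with the transgene it was 1 with both DESeq2 fits, and for the transgene without Plekhg5 it was 3 with both DESeq2 fits and 1 with only the 2 genotypes of the comparison. Leaving out each library in turn gave 0 to 3 calls, 0 to 0 calls and 0 to 1 calls in these comparisons. The count was 3 without the first Plekhg5-/- library, 2 without the second or the third Plekhg5+/+ SOD1-G93A library, and for the transgene without Plekhg5 1 without the second Plekhg5-/- or the first Plekhg5+/+ SOD1-G93A library. It stayed 0 for Plekhg5 loss without the transgene and for the interaction under all alternatives run. In all comparisons it stayed 0 with size factors from DESeq2 in edgeR, all genes kept, a minimum of 10 counts in every library, and Y-linked transcripts as a covariate. The same held with the replicate number as a block (replicate block, 0 calls), although no pairing of mice is named. Of 1135 alternative values other than these counts, 0 reversed direction and 23 passed the threshold where the main value had not. None could be lost, because 0 members passed in the main test. The log2 differences among these values were only those of members with an unadjusted p under 0.05 in the main test, where a change of sign is unlikely. The 0 reversals therefore do not show that directions hold for the other members. The counts of genes called are not among the 1135 values, and they changed as given above. Without the first Plekhg5+/+ SOD1-G93A library the log2 difference of Col28a1 for Plekhg5 loss with the transgene was 0.52 in place of 0.96. The prior shrank the log2 difference of Col28a1 for the transgene without Plekhg5 from 2.45 to 0.51. DESeq2 gave 1162 calls over all genes for the transgene with Plekhg5 intact (without a prior), where edgeR gave 498.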
